A study of Xenopus laevis with 6 samples.

Results

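Claudins, cadherins and the other proteins that join neighbouring cells were followed at the transcript level in frog ectoderm with and without forced Notch activity. A gene was included when its symbol in the array annotation, without the final .L or .S, began with the name of a claudin, a tight junction protein or scaffold (tjp, ocln, cgn, f11r, marveld, magi), a cadherin or protocadherin, an alpha or delta catenin, a nectin, epcam, a connexin, or an apical polarity protein (pard3, pard6, crb, patj). This gave 48 genes of the 7531 with a single symbol on the array, read by 59 of its 15491 probe sets. Where a gene had several probe sets, the probe set with the highest mean signal stood for it. The endings .L and .S name the related copies (homeologs) of a gene in the *Xenopus laevis* genome.

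The tissue was the animal cap, the roof of the blastula, cut out at stage 8 and grown alone until intact sibling embryos were at stage 20. There were 4 untreated samples, described in the design as pooled explants, and 2 samples from embryos injected with NICD, the intracellular part of the Notch receptor, which enters the nucleus and activates target genes. No promoter, dose, injected amount or wild-type strain is given in the labels, and no group injected with a control is among the samples, so injection and NICD cannot be told apart. Each RNA sample went onto 1 Affymetrix array for *Xenopus laevis*, and a signal below is the MAS5 intensity of a probe set on a linear scale. The labels name no separate clutch or culture for each sample, so the p-values rest on a spread among these samples that may be technical.

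An epithelial sheet is held together by several kinds of junction. Tight junctions seal the space between cells near the apical surface: claudins and occludin are their membrane proteins, and scaffolds such as the ZO proteins and cingulin tie them to the cytoskeleton. Adherens junctions are built on cadherins, which bind like cadherins on the next cell and are anchored to actin through catenins, with nectins beside them. Gap junctions are channels of connexins that connect the cytoplasm of neighbours, and the Par and Crumbs proteins set the apical boundary at which tight junctions form. In vertebrate ectoderm the mixture of cadherins differs between future epidermis and neural plate, with E-cadherin typical of the former and N-cadherin of the latter.

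Of the 48 junction genes, 35 were tested, meaning that 2 or more arrays had a signal above their own 40th percentile. In NICD explants 12 of these were higher and 5 lower at an adjusted p under 0.05 (limma, Benjamini-Hochberg over all tested probe sets). Over all 10368 probe sets tested, 31.6% were called, 15.3% higher and 16.2% lower. The share of junction genes called was 48.6%. Of the 35 tested, 13 were called and differed by at least 2-fold, 9 higher and 4 lower. Over all 10368 tested probe sets, 2286 (22.0%) were called at that size. Among those called, changes of that size were 13 of 17 for members and 2286 of 3275 for all probe sets. The increases were led by the connexin gja7.S, the claudin 6 copies cldn6.1.L, cldn6.1.S and cldn6.2.S, and nectin2.L. The decreases, E-cadherin among them, were led by the connexin gjb2.L and the protocadherin pcdh7.L. Both gjb2.L and pcdh7.L passed the filter only through untreated arrays, where they are high, so their calls are no support. The median log2 change of the tested members was 0.21, beside 0.05 over all tested probe sets, with 0.28 on the first and 0.22 on the second of the processing days described below. Of the 35 tested members, 27 were above the 40th percentile in all 6 arrays, beside 7383 of all 10368 tested probe sets. Of these 27, 14 were called (51.9%), beside 27.3% of all 7383 such probe sets. The signals of NICD and untreated arrays did not overlap for 21 of the 35 tested members, 13 above and 8 below. Over all 10368 tested probe sets, 5285 had no overlap (51.0%, with 26.7% above and 24.2% below).

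**Figure D1:**
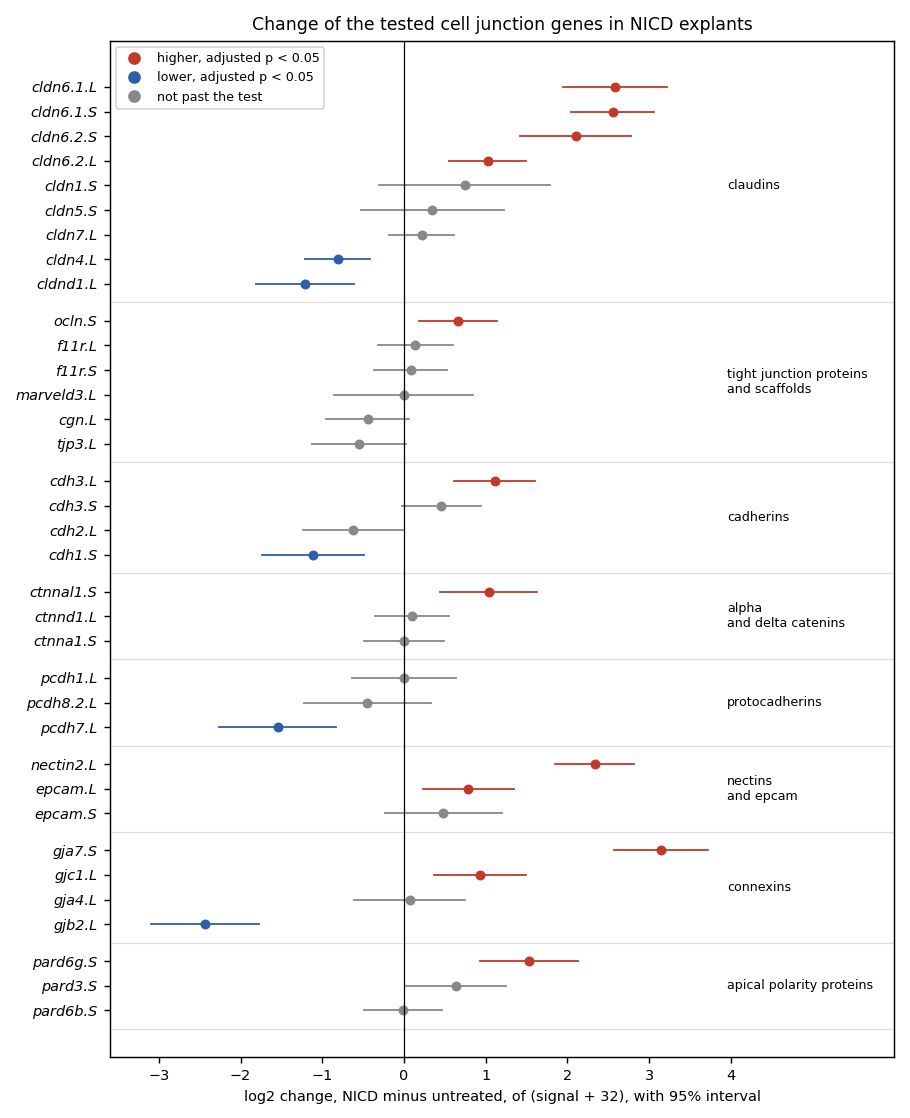
Log2 change of (signal + 32) between NICD and untreated explants for the 35 tested cell junction genes, with 95% intervals from limma, grouped by role. Red points are the 12 genes called higher, blue points the 5 called lower and grey points the 18 not past the test; gja7.S, cldn6.1.L, cldn6.1.S, nectin2.L and cldn6.2.S lie farthest to the right, all at 2.10 or higher, and gjb2.L farthest to the left.

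The arrays carried 2 recorded hybridization dates, called processing days here, each with 2 untreated arrays and 1 NICD array. Untreated 1, untreated 2 and NICD 1 were on the first, the others on the second. Leaving out the second NICD array removed calls among the members and over the whole array alike. Without NICD 2, 6 members were higher (cldn6.1.L, cldn6.1.S, cldn6.2.S, gja7.S, nectin2.L and pard6g.S) and 1 lower (gjb2.L), which is 20.0% of those tested, beside 16.2% of all probe sets. Without NICD 1 there were 10 higher and 6 lower, 45.7% of those tested, beside 25.1% of all probe sets. The lower members counted here include gjb2.L and, without NICD 1, pcdh7.L. Both passed the filter only through untreated arrays, so these calls are no support. Both NICD arrays ran in fluidics module 4 and the untreated arrays in modules 1 and 2, and these modules and NICD cannot be told apart. The gapdh control, whose 3'-end over 5'-end signal is a sign of RNA or labelling quality, gave a ratio of 2.70 to 3.54 in untreated arrays, 4.21 in NICD 1 and 2.98 in NICD 2. Its part in the results was not tested.

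Of 9 claudins tested 4 were higher and 2 lower, a share of 66.7% called, beside 31.6% of all tested probe sets. Claudin 6 is a tight junction claudin typical of early embryonic epithelia. The cldn6.1.L signal was 884.5, 1105, 646.9 and 636.3 in untreated explants 1 to 4 and 4024 and 6015 in NICD explants 1 and 2. Both NICD arrays lay far above every untreated array, a log2 change of 2.58 ± 0.29 (SE; adjusted p = 0.000129, limma). The cldn6.1.S signal was 1617, 1529, 2040 and 1659 in untreated and 8414 and 12233 in NICD explants, a log2 change of 2.55 ± 0.23 (adjusted p = 4.20e-05, limma). The means of these copies rose 6.13-fold and 6.03-fold.

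The second claudin 6 gene, cldn6.2, rose as well, with a smaller log2 change in each copy. Whether cldn6.1 and cldn6.2 differ in their change was not tested. The cldn6.2.L signal was 7657, 7036, 6883 and 8735 in untreated and 12320 and 19126 in NICD explants, a log2 change of 1.02 ± 0.21 (adjusted p = 0.00511, limma). That of cldn6.2.S was 3554, 2828, 1747 and 2066 in untreated and 8533 and 13262 in NICD explants, a log2 change of 2.10 ± 0.30 (adjusted p = 0.000649, limma). In both copies the NICD arrays stood clear of the untreated ones. The cldn6.2.S probe set carries the array maker's suffix for probes shared between genes and the cldn6.2.L probe set one for shared probes within a gene, so these values may mix copies; the cldn6.1 probe sets carry no such suffix. The call for cldn6.2.L was lost without NICD 2 (adjusted p = 0.0712, limma). In the gene order of the RefSeq assembly Xenopus_laevis_v10.1, cldn6.2 and cldn6.1 are direct neighbours among protein-coding genes on the L and on the S chromosome alike.

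Claudin 4, a barrier claudin of many epithelia, went the other way. The cldn4.L signal was 15881, 16206, 15090 and 15750 in untreated and 10535 and 7607 in NICD explants. The untreated values lay close together, with an SD of 469.0, and both NICD arrays were below them (log2 change -0.81 ± 0.18, SE; adjusted p = 0.00649, limma; 0.0731 without NICD 2). The claudin-domain gene cldnd1.L, a distant relative of the claudins, had signals of 655.3, 592.3, 907.6 and 769.0 in untreated and 375.3 and 226.2 in NICD explants, a log2 change of -1.22 ± 0.27 (adjusted p = 0.00679, limma; 0.0919 without NICD 2). In whole explants such as these, fewer cells of a type and less RNA per cell cannot be told apart.

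The remaining claudins gave no clear change or disagreed between probe sets. Claudin 7, cldn7.L, an epithelial claudin, was 8216, 7661, 7826 and 9644 in untreated and 9198 and 10096 in NICD explants, a log2 change of 0.21 with a 95% interval of -0.18 to 0.61. Of the other cldn7.L probe sets, the dimmest rose, from a range of 1782 to 2361 to 3919 and 4575 (log2 change 0.94, adjusted p = 0.00742, limma; 0.0744 without NICD 2), and the remaining probe set did not pass (0.007, adjusted p = 0.983, limma). Claudin 1, cldn1.S, needed for the skin barrier in mice, was split. Its brighter probe set read 603.9, 268.0, 686.8 and 1227 in untreated and 1344 and 812.6 in NICD explants, not past the test (log2 change 0.74, 95% interval -0.31 to 1.79). Its dimmer probe set read 655.3, 489.0, 861.7 and 674.0 in untreated and 198.9 and 44.0 in NICD explants, a log2 change of -2.38 ± 0.40 (adjusted p = 0.00157, limma; 0.0156 without NICD 2). No direction is therefore given for cldn1.S.

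Claudin 5, known from the endothelial barrier of mammals, was near background. The cldn5.L signal was 5.5, 14.9, 24.8 and 5.7 in untreated and 110.4 and 143.5 in NICD explants. It passed the filter on low signals in only 1 array and was not tested; a fit with no filter gave a log2 change of 1.84 (adjusted p = 0.000676, limma). Its homeolog cldn5.S did not pass (log2 change 0.35, 95% interval -0.53 to 1.23).

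**Figure D2:**
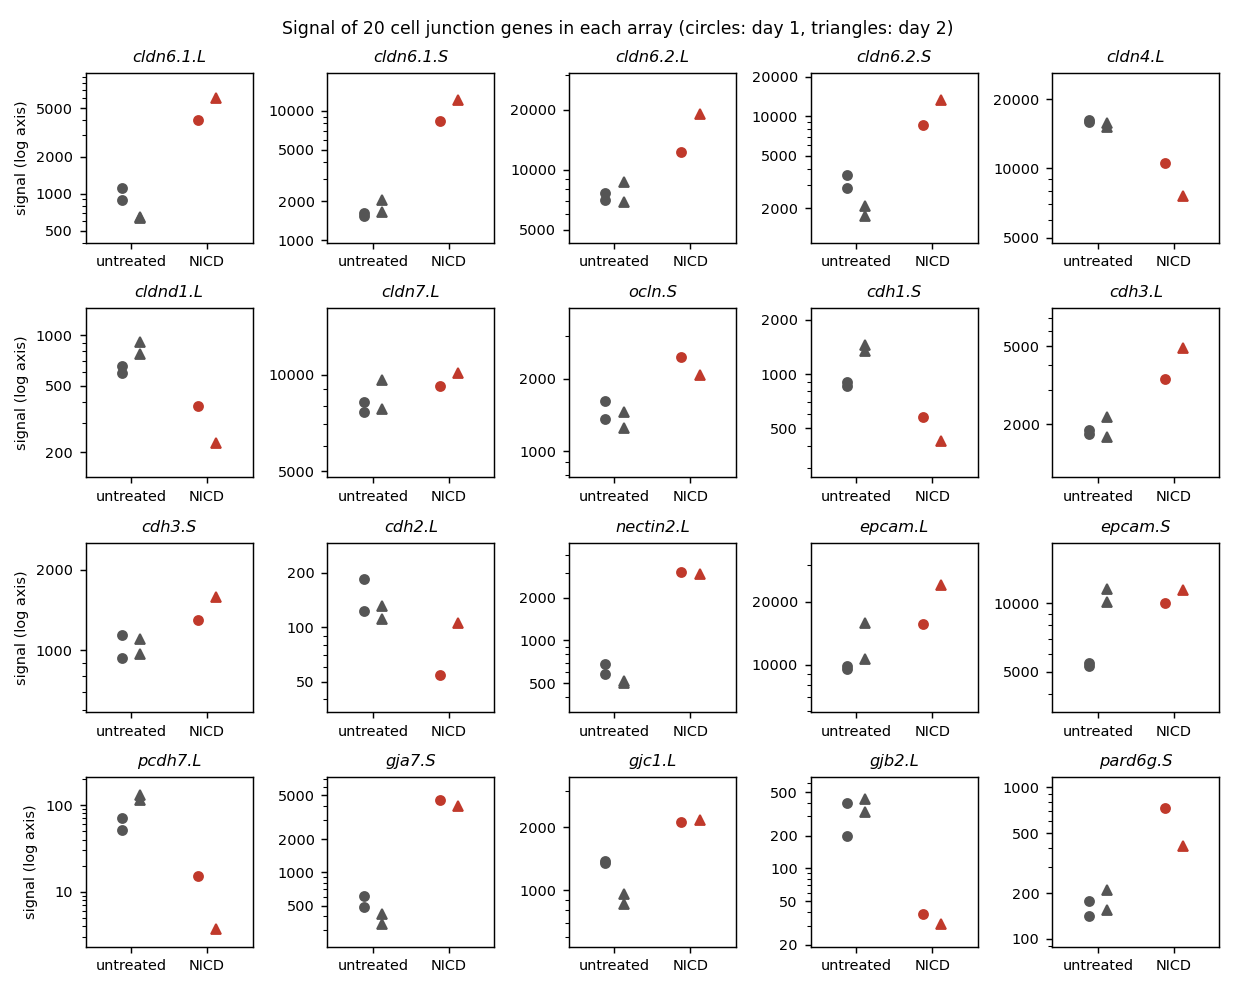
Signal of 20 junction genes in each of the 6 arrays (log axis), grey for untreated and red for NICD explants, circles for the first and triangles for the second processing day. In the claudin 6 panels, nectin2.L and gja7.S the NICD points lie above all untreated points, in gjb2.L and pcdh7.L below, and in epcam.S the untreated points fall into 2 pairs by day.

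Among the other tight junction proteins, 1 of 6 tested was called, a share of 16.7%, beside 31.6% of all tested probe sets. Occludin, ocln.S, was 1363, 1625, 1455 and 1247 in untreated and 2464 and 2077 in NICD explants, with both NICD arrays above the untreated range (log2 change 0.66 ± 0.21, SE; adjusted p = 0.0378, limma). This call was weak: it ended in 7 of 16 alternative settings, among them leaving out either NICD array or any of untreated 1, 3 and 4, and a dimmer ocln.S probe set had a log2 change of -0.005. The junctional adhesion molecule f11r changed by 0.14 (f11r.L, 95% interval -0.32 to 0.60) and 0.08 (f11r.S, -0.37 to 0.53), and marveld3.L, a relative of occludin, by -0.006 (-0.86 to 0.85). Cingulin, cgn.L, which links tight junctions to actomyosin, was 2302 to 3534 in untreated and 2087 and 1894 in NICD explants, without overlap but not past the test (log2 change -0.45, adjusted p = 0.168, limma). The ZO-family scaffold tjp3.L was 230.7 to 291.3 in untreated and 229.0 and 122.0 in NICD explants (log2 change -0.55, adjusted p = 0.136, limma; past the test without NICD 1). The paracingulin copies cgnl1.L and cgnl1.S, the scaffold magi1.S and tjp3.S were below the filter and not tested, with no signal above 88.7 in any array. No tjp1 symbol was among the members.

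The cadherins divided. E-cadherin, cdh1.S, the main cadherin of mature epithelia, was 901.3, 857.9, 1458 and 1339 in untreated and 578.5 and 425.7 in NICD explants. Both NICD arrays were lower than every untreated array, and the untreated arrays of the second day were higher than those of the first (log2 change -1.11 ± 0.28, SE; adjusted p = 0.0132, limma). The within-day changes were -0.58 and -1.64, and the call was lost without NICD 2 (log2 change -0.90, adjusted p = 0.129, limma). The cdh3 gene encodes C-cadherin, the cadherin that *Xenopus* embryos inherit from the egg and use for adhesion during gastrulation. The cdh3.L signal was 1867, 1789, 1712 and 2166 in untreated and 3401 and 4903 in NICD explants, a log2 change of 1.11 ± 0.22 (SE; adjusted p = 0.00433, limma; 0.0612 without NICD 2). Its homeolog cdh3.S, 941.2, 1139, 1105 and 972.5 in untreated and 1301 and 1583 in NICD explants, lay above the untreated range too but was not past the test (log2 change 0.46, 95% interval -0.02 to 0.94). In the gene order of Xenopus_laevis_v10.1, cdh1.S and cdh3.S are direct neighbours.

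N-cadherin, cdh2, typical of the neural plate, gave no single answer. The brightest cdh2.L probe set read 123.6, 184.3, 111.3 and 130.6 in untreated and 54.3 and 105.5 in NICD explants, a log2 change of -0.62 that was not past the test (adjusted p = 0.118, limma). A second cdh2.L probe set read 54.5, 58.9, 58.9 and 41.8 in untreated and 147.8 and 148.9 in NICD explants. Its NICD arrays were both above the untreated range, a log2 change of 1.08 ± 0.23 (SE; adjusted p = 0.00572, limma; 0.0444 without NICD 2). It passed the filter only through the NICD arrays. A further cdh2.L probe set and cdh2.S were below the filter and not tested; cdh2.S read 34.9 to 68.1 in untreated and 50.7 and 22.5 in NICD explants. Apart from 184.3 in untreated 2, all these signals were below the median of their array, which was between 153.9 and 177.4. No direction is therefore given for N-cadherin. The cadherins cdh6.L, cdh11.S and cdh20.L, known from neural and crest tissue, were not tested and reached no more than 47.8 in any array.

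The catenins that anchor cadherins were not past the test. Alpha-catenin, ctnna1.S, which connects the cadherin complex to actin, was 1818, 1687, 2074 and 2387 in untreated and 2126 and 1835 in NICD explants (log2 change 0.001, 95% interval -0.49 to 0.49). A second ctnna1.S probe set, at a log2 change of -0.42, did not pass (95% interval -0.95 to 0.11, adjusted p = 0.213, limma). The p120 catenin ctnnd1.L, which stabilises cadherins at the membrane, changed by 0.10 (95% interval -0.36 to 0.56). The alpha-catulin gene ctnnal1.S, a relative of alpha-catenin without an established part in adherens junctions, was 75.2, 113.9, 143.2 and 93.9 in untreated and 211.8 and 288.0 in NICD explants, a log2 change of 1.04 ± 0.26 (SE; adjusted p = 0.0137, limma; 0.133 without NICD 2).

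Protocadherins are cadherin relatives that guide cell sorting and movement. NF-protocadherin, pcdh7.L, an adhesion molecule of *Xenopus* ectoderm, was 70.8, 51.8, 131.0 and 114.3 in untreated and 15 and 3.7 in NICD explants. It fell below the untreated range in both NICD arrays (log2 change -1.55 ± 0.32, SE; adjusted p = 0.00492, limma; 0.0587 without NICD 2). Like pcdh8.2.L it passed the filter only through 2 untreated arrays. The axial protocadherin pcdh1.L changed by 0.003 (95% interval -0.63 to 0.64) and pcdh8.2.L, of the family of the paraxial protocadherin that mesoderm uses in its movements, by -0.45 (-1.23 to 0.33). The pcdh8l.S and pcdhga3.L probe sets were not tested, with no signal above 66.0.

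Nectins are immunoglobulin-type adhesion proteins of adherens junctions. The nectin2.L signal was 681.6, 580.0, 520.8 and 502.0 in untreated and 3046 and 2921 in NICD explants. The NICD arrays nearly coincided, 5.22-fold above the untreated mean (log2 change 2.33 ± 0.22, SE; adjusted p = 5.69e-05, limma). The epithelial cell adhesion molecule epcam.L, which modulates cadherin adhesion, was 9499, 9868, 10673 and 15905 in untreated and 15642 and 23963 in NICD explants. The groups overlapped, since untreated 4 exceeded NICD 1, and the change was 0.78 ± 0.25 (SE; log2; adjusted p = 0.0371, limma). The epcam.L call ended in 6 of 16 alternative settings, including without NICD 2 (log2 change 0.48, adjusted p = 0.319, limma), without untreated 1, 2 or 3, with no filter and without a variance trend. The epcam.S signal was 5478, 5316, 11570 and 10141 in untreated and 9988 and 11423 in NICD explants, not past the test (log2 change 0.48, 95% interval -0.24 to 1.20). Its change was 0.88 on the first day and 0.08 on the second.

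Connexins showed the widest range, from -2.43 to 3.15 on the log2 scale. Of 4 tested 3 were called, a share of 75%, beside 31.6% of all tested probe sets. The low end is gjb2.L, whose call is no support because of the filter. The connexin gja7.S was 489.0, 611.8, 421.2 and 338.0 in untreated and 4561 and 4036 in NICD explants, a 9.24-fold difference of the means and the largest log2 change of all members (3.15 ± 0.26, SE; adjusted p = 2.50e-05, limma). The connexin gjc1.L was 1382, 1350, 857.9 and 958.3 in untreated and 2126 and 2173 in NICD explants, above the untreated range in both (log2 change 0.93 ± 0.25, SE; adjusted p = 0.0187, limma). The gjc1.L call was lost without NICD 1 (adjusted p = 0.0742, limma) and without NICD 2 (0.106). The connexin gjb2.L, whose mammalian counterpart serves the inner ear and skin, was 199.2, 396.7, 325.6 and 428.4 in untreated and 38 and 30.7 in NICD explants. Its mean fell to 0.102 of the untreated level (log2 change -2.43 ± 0.30, SE; adjusted p = 0.000238, limma), and it passed the filter only through the untreated arrays. The gja4.L signal overlapped (log2 change 0.07, 95% interval -0.61 to 0.75). The probe set of gja1.L, a connexin of many mammalian tissues, read 7.2 to 11.1 in all 6 arrays and was not tested.

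Of the apical polarity genes 1 of 3 tested was called, a share of 33.3%, near the 31.6% of all tested probe sets. The Par6 gene pard6g.S, part of the complex that sets the apical domain, was 178.2, 142.2, 209.3 and 155.3 in untreated and 729.6 and 413.5 in NICD explants (log2 change 1.53 ± 0.27, SE; adjusted p = 0.00205, limma). The other pard6g.S probe set, without a suffix for shared probes, had a log2 change of 1.71 (adjusted p = 0.000639, limma). Its relative pard6b.S changed by -0.01 (95% interval -0.49 to 0.47). The Par3 gene pard3.S, 48.4 to 102.0 in untreated and 128.1 and 118.1 in NICD explants, was not past the test (log2 change 0.64, adjusted p = 0.103, limma) and passed the filter only through the NICD arrays. The Crumbs gene crb2.S was not tested (32.8 to 86.4 over all arrays).

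Of 9 members with more than 1 probe set, 6 had several that were tested, and in 4 of these (cdh2.L, cldn1.S, ctnna1.S and ocln.S) the signs of the changes differed. In no gene were probe sets called in opposite directions. Both homeologs were tested for 5 genes. All 4 claudin 6 copies were called higher, cdh3 and epcam were called in the L copy alone with the same sign in S, and neither f11r copy was called. Whether the copies of cdh3 or epcam differ was not tested, and a probe set named for 1 copy can detect the other.

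**Figure D3:**
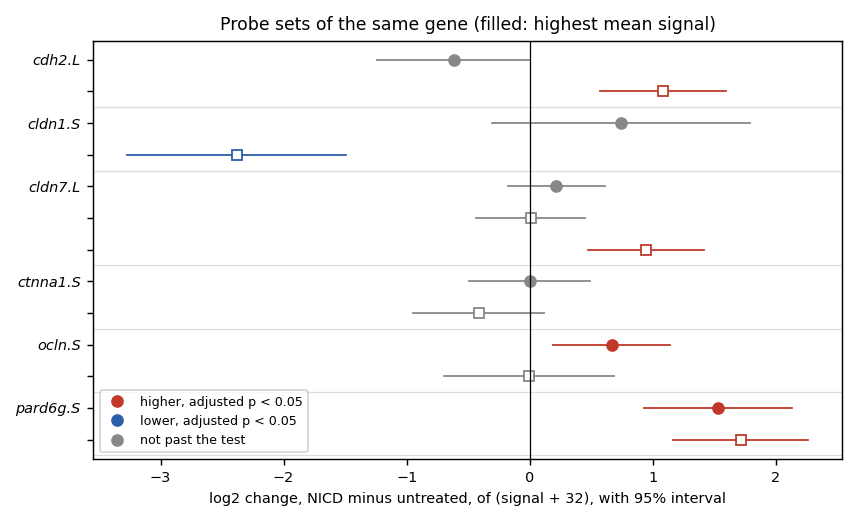
Log2 change of (signal + 32), NICD minus untreated, with 95% intervals, for every tested probe set of the 6 members with several; filled circles are the probe sets with the highest mean signal, open squares the others, coloured by call. The probe sets of cldn1.S and cdh2.L lie on opposite sides of 0, those of pard6g.S together.

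Untreated arrays of the 2 days were apart from each other, by at least 1.5-fold, for 7 of the 35 tested members, beside 19.6% of all tested probe sets. On the second day cldn6.2.S and cldn6.1.L were lower in the untreated arrays, and cdh1.S, pcdh7.L, marveld3.L, epcam.S and cldn1.S were higher, with log2 differences from -0.73 to 1.12. Each day holds untreated and NICD arrays in the same ratio. With the day as a block the counts of members were again 12 higher and 5 lower, 48.6% of those tested, while the share of all probe sets called was 40.2%, above the 31.6% without the block.

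Related genes outside the rule came from 5 lists of further adherens junction, tight junction, polarity and adhesion genes and of epithelial regulators. Of 46 on the array 35 were tested, with 4 higher and 7 lower, a share of 31.4% called. This share is near that of all probe sets. Of the 4 higher, prickle1.L and zeb2.S passed the filter only through NICD arrays, where they are high, so their calls are no support. Beta-catenin, the partner of cadherins and of Wnt signalling, changed by 0.29 (ctnnb1.L) and 0.03 (ctnnb1.S), not past the test. Of 10 adherens junction genes tested, 2 were lower and none higher: plakoglobin jup.L, which also serves desmosomes (log2 change -0.61, adjusted p = 0.0314, limma), and pdlim1.S, an actin-associated adaptor (-0.98, adjusted p = 0.0167, limma). Neither call held without NICD 2 (log2 change -0.58 and -0.76). The jup.L call was also lost without NICD 1 and without any of untreated 2, 3 and 4. In limma 0 of 3 other tight junction genes and 0 of 2 other adhesion genes were called (1 of these 5, igsf3.S, had an unadjusted p under 0.05), and ncam1.L and ncam1.S, the neural cell adhesion molecule, were below the filter.

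Of 14 further polarity genes, 3 were higher and 2 lower. The planar polarity gene prickle1 rose in both copies, prickle1.L from 55.6, 37.4, 66.6 and 78.7 to 397.5 and 1178 (log2 change 3.00 ± 0.38, SE; adjusted p = 0.000307, limma) and prickle1.S from 95.6, 79.0, 57.3 and 110.8 to 414.2 and 455.0 (2.01 ± 0.25, adjusted p = 0.000276, limma). For prickle1.L the filter was passed only through the NICD arrays. The basolateral polarity genes of the Lgl family divided, llgl1.S rising (log2 change 1.54, adjusted p = 0.000810, limma) and llgl2.L falling by 0.75 on the log2 scale (adjusted p = 0.0364, limma). The other decrease was that of vangl1.L, a planar polarity gene (-0.75, adjusted p = 0.0214, limma), which is named here after its value was seen. Without NICD 2 neither decrease held (log2 change -0.54 and -0.68). The llgl2.L call was also lost without untreated 1, 2 or 4, and that of vangl1.L without untreated 1 or NICD 1.

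Of 6 regulators of epithelial and mesenchymal state tested, 3 fell and 1 rose. The grainyhead factors, which switch on junction and barrier genes in epidermis, were lower: grhl1.L was 5005, 4719, 6999 and 6946 in untreated and 2528 and 1762 in NICD explants (log2 change -1.45 ± 0.25, SE; adjusted p = 0.00173, limma). The grhl3.L signal was 362.5, 386.1, 769.4 and 616.0 in untreated and 169.0 and 108.4 in NICD explants (log2 change -1.69, adjusted p = 0.00338, limma; 0.0520 without NICD 2). The epithelial splicing factor esrp1.L fell by 0.91 on the log2 scale (adjusted p = 0.00602, limma; 0.0714 without NICD 2). The zinc finger gene zeb2.S, known in mammals as a repressor of E-cadherin and in *Xenopus* from the neural plate, was 6.1, 5.2, 1.4 and 9.3 in untreated and 224.3 and 140.9 in NICD explants (log2 change 2.49 ± 0.27, SE; adjusted p = 0.000108, limma), passing the filter only through the latter. Another repressor of E-cadherin, snai1.S, was not past the test (log2 change 0.64, adjusted p = 0.136, limma). The snai2 copies of the same list were below the filter and not tested. The snai2.L signal was 46.6 to 91.4 in untreated and 17.2 and 10.9 in NICD explants, that of snai2.S 13.0 to 26.3 and 4.3 and 31.7.

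Many markers of cell types also differed between the groups. Of 10 neural progenitor probe sets tested, 10 were higher, with a summed signal of 1790 to 2562 in untreated and 21653 to 22885 in NICD explants. These include nrarp.S, a gene named for its regulation by Notch (16.1 to 52.7 in untreated, 209.5 and 348.2 in NICD explants). Of 11 epidermal ones, grhl3.L among them, 7 were lower, and the sum was 78713 to 125393 in untreated and 44116 to 50119 in NICD explants. Of 9 multiciliated, 7 ionocyte and 4 secretory cell markers tested, 8, 7 and 3 were lower. Their summed signals were 29091 to 41086, 7484 to 9623 and 25353 to 38150 in untreated explants, and 13980 to 17349, 591 to 780 and 1809 to 3503 in NICD explants. Most of the multiciliated sum in NICD explants came from tubb4b.L (13888 and 12111), the multiciliated marker not past the test. In untreated explants tubb4b.L was 12310 to 23491, so the sum understates the fall of the other multiciliated markers. Of 4 notochord and mesoderm markers 3 were higher (sum 629 to 653 and 3121 to 5151). Of 3 endoderm markers 2 were lower (906 to 2242 and 536 to 839). Of 5 neuronal markers 2 were higher, both of them copies of prph, and 1 was lower (6144 to 7456 and 5713 to 6702). Of 2 endothelium and blood markers 0 changed in limma (265 to 413 and 301 to 346), and 0 had an unadjusted p under 0.05. Several markers passed the filter only through the group where they are high, so their calls are no support: 3 neural progenitor, 1 neuronal and 1 mesoderm marker through NICD arrays, and 6 ionocyte, 4 multiciliated, 1 secretory and 2 endoderm markers through untreated arrays. Over all tested probe sets, 347 passed only through NICD and 840 only through untreated arrays. Signals were under 100 in all arrays for 3 notochord and mesoderm, 3 endoderm, 2 endothelium and blood, 1 neuronal and 1 secretory marker. The part of these cell types in the changes of the junction genes was not tested. All 11 epidermal probe sets, larval keratins among them, were above the filter in every array of both groups.

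**Figure D4:**
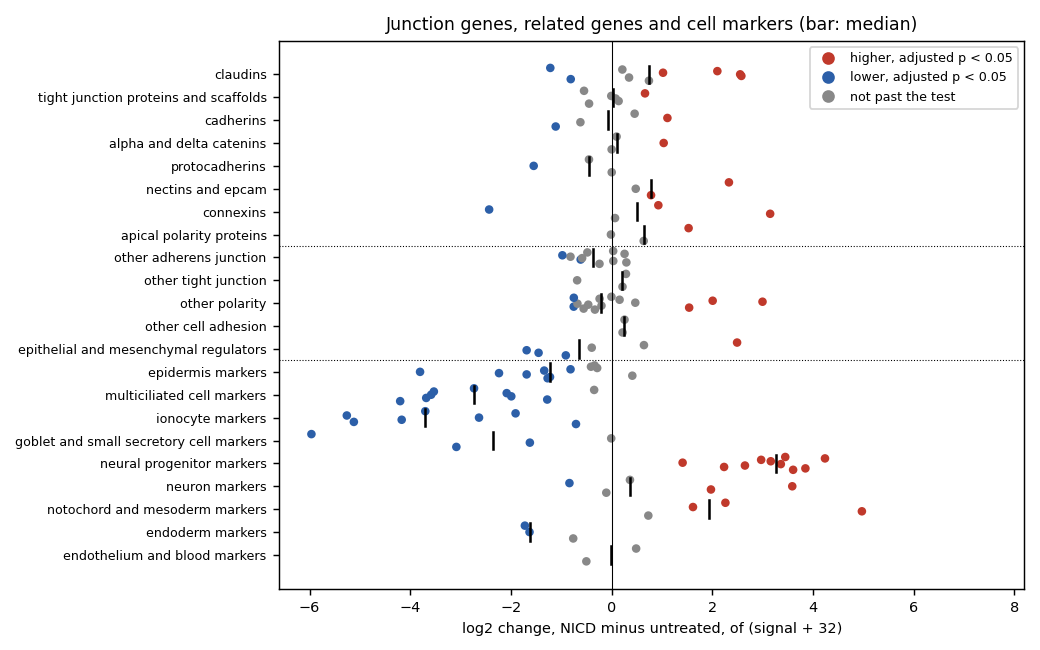
Log2 change of (signal + 32), NICD minus untreated, of each tested gene, by class of junction gene (above the upper dotted line), list of related genes (between the lines) and cell type marker list (below). Points are coloured by call and the bar is the median; the junction classes spread on both sides of 0, whereas the neural progenitor markers lie at 1.41 or higher and the ionocyte markers at -0.71 or lower.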

How the data were processed

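Signals of 15611 probe sets in 6 arrays were taken from the deposited value table. The authors made these linear intensities with MAS5, according to the submitters' processing notes, which give no version. Each column had a mean of about 500 after leaving out the lowest and highest 2%, so the authors' values were already scaled per array. The deposited experiment files hold other values, station and scanner settings, per the file headers, and gave the processing day and module. Of 15491 probe sets without the 120 controls, 9304 had 1 gene symbol, 195 several and 5992 none. Symbols were updated through the gene number for 9227 with a RefSeq table of Xenopus_laevis_v10.1, which held the gene numbers of all 59 junction probe sets. Probe sets above the 40th percentile in at least 2 arrays were fitted as log2(signal + 32), which understates changes of low signals, with limma 3.58.1 (R 4.3.3, eBayes with a trend, 2-sided, no covariate), the p-values adjusted over all 10368 at a threshold of 0.05. The fit was tested on simulated data. Plots were made with matplotlib 3.10.9 in Python 3.11.15. Array number limits precision.

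Members and lists were chosen with earlier results of these data known. Members past the test with groups apart, up to 30, and cdh1, cdh2, cdh3, epcam, tjp1, ocln, ctnna1 and gja1 were named with all signals, and related genes past the test, up to 4 per list. Further values of members were given after they were seen. Alternatives were quantile normalization, pseudocounts of 1 and 80, no filter or the 60th percentile, no trend, a block for replicate number or for day, omission of each array in turn on the same probe sets, and the mean of all probe sets; probe sets without a shared-probe suffix were added after seeing the data. Where this left 1 NICD array, its variance was taken from the untreated arrays. No sequence was used. Same-numbered samples share only a number, apart from untreated 1 and NICD 1, which also share a processing day.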

Additional observations from a re-analysis of the deposited data

How the results depend on the processing

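Of 17 named members past the test, 7 were called in every setting run for them, 10 lost the call in at least 1 and none changed sign. The 7 include gjb2.L and the 10 include pcdh7.L. Both passed the filter only through untreated arrays, so their calls are no support here either. Counts of members stayed within 1.5 times 12 higher and 5 lower except when an array was left out: 6 to 11 higher and 1 to 6 lower, both lowest without NICD 2. The median log2 change of 0.21 moved to 0.35 with quantile normalization, 0.46 with the filter at the 60th percentile and 0.08 with probe sets without a shared-probe suffix, and lay between 0.15 and 0.33 with an array left out. Among related genes, the count lower was 12 instead of 7 with the day as a block and 1 to 7 with an array left out. Over all probe sets, arrays left out gave 756 to 1545 higher and 927 to 1563 lower. Leaving out an array also lowers the number of arrays, and the cause of these shifts was not tested. With the replicate number as a block 12 members were higher and 4 lower (calls of cdh1.S, gjc1.L and ocln.S were lost at log2 changes of -0.79, 0.64 and 0.59, adjusted p = 0.0557, 0.0849 and 0.120 in limma, and epcam.S, at 0.98, and cldn1.S gained calls, adjusted p = 0.00938 and 0.00905). The pairing is not in the design. Deviations from the group means correlated at 0.20 and -0.23 for same-numbered samples and at 0.12 to 0.28 for samples of 1 day. With 2 NICD arrays, the deviations of 1 mirror those of the other. Untreated 1 and NICD 1 share both number and day, so these values cannot decide whether samples were paired. Low signals limit what can be said of the 13 members not tested.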
